A study of Mus musculus with 2 samples.

Results

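The 10 genes described here belong to the bone-forming cell lineage and were followed in a fat cell line after an siRNA against Pink1. They are the regulators Runx2, Sp7, Dlx5, Msx1, Msx2 and Twist1, the matrix protein genes Spp1 and Ibsp, and the enzyme genes Alpl and Phex. They were chosen by symbol as osteogenic regulators and mineral matrix genes, whether or not they had reads, and all 10 had a row among the 23282 rows of each table. The cells were 3T3-L1, a mouse line of embryonic fibroblast origin that can be turned into fat cells in culture and that the labels give as murine adipocytes. The library titled sipink came from cells given sipink1, an siRNA against the mitochondrial kinase gene Pink1, and the library titled control from cells given sicontrol. Passage, day of differentiation, siRNA sequence and time after transfection are not stated in the labels. There was 1 library per group, so each value below is a single measurement, no difference has a p-value, and a difference between the treatments and a difference between 2 culture dishes cannot be told apart.

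RUNX2 is the transcription factor that commits mesenchymal progenitors to the osteoblast fate, and it acts with the partner subunit CBFB. SP7 (osterix) acts after it, DLX5 and MSX2 are homeodomain factors of the same path, MSX1 is their relative in early skeletal mesenchyme, and TWIST1 is a basic helix-loop-helix factor that holds RUNX2 back in uncommitted cells. Mature osteoblasts then make the mineral matrix, in which osteopontin (Spp1) and bone sialoprotein (Ibsp) bind mineral and integrins, the phosphatase ALPL removes the mineralization inhibitor pyrophosphate, and the membrane peptidase PHEX takes part in phosphate balance. Fat cells and osteoblasts arise from related progenitors.

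RUNX proteins bind DNA whose core reads TGTGGT on one strand and ACCACA on the other. RefSeq promoter windows (GRCm38.p6), which run from 250 bases before to 50 bases after an annotated start, were found for 8 of the 10 genes, in 10 windows. The core, searched on both strands, was present in 2 of these 10 windows, and in 16.8% of all 32851 promoter windows of the same length. The windows with a match, for Runx2 and for the upstream start of Spp1, are shown with that of Ibsp, the other matrix gene, which has none. Capitals mark the core.
Runx2 (chr17:44814578-44814877, minus strand): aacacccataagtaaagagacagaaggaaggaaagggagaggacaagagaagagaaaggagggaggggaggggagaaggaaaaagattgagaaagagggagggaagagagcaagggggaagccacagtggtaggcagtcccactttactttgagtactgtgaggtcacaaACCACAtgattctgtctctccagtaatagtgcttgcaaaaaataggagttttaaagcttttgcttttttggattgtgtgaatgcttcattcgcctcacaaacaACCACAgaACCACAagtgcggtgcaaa
Spp1 (chr5:104434861-104435160, plus strand): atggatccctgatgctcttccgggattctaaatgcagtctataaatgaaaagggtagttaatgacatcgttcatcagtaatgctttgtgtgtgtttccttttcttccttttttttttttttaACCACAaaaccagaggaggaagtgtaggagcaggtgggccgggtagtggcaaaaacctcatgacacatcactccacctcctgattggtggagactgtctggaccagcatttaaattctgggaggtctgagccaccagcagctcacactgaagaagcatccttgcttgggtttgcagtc
Ibsp (chr5:104299037-104299336, plus strand): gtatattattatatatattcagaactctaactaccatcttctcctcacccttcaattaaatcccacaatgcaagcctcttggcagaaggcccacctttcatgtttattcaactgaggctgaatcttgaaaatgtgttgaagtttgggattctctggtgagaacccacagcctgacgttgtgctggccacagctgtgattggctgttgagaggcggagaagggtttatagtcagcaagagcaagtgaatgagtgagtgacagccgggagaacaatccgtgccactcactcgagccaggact
The Runx2 window held 3 matches, at positions -80 to -75, 24 to 29 and 32 to 37 counted from the annotated start, and 60 of all windows (0.183%) held 3 or more. The Spp1 window held 1, at -128 to -123. A match is a run of letters and does not show that a factor binds there. CG pairs split the members in a way the choice of genes did not use. The windows of Msx1, Twist1 and Msx2 held 29, 27 and 22 CG pairs, and the upstream of the 2 Alpl windows held 26, all above the upper quartile of 20 over all windows. The windows of Runx2, Phex and Ibsp held 2, 4 and 5, both Spp1 windows held 3 and the downstream Alpl window held 4, against a median of 7 over all windows. Spp1 and Runx2 (CG-poor windows) and Msx1 and Twist1 (CG-rich windows) were all well detected, and Msx2 (CG-rich window) had no counts. The Runx2 window covers 1 annotated start of a gene with 13 annotated transcripts. Reads from 3′ ends do not tell which start was used.

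The sipink library held 14214768 counts and the control library 13803174. Pink1 itself had 351 counts in the sipink library and 511 in the control library, a ratio of 0.687, in the direction the labels imply. Its counting interval was 0.598 to 0.788, and a widened interval, which allows for how far genes of like level differ between the 2 libraries, was 0.445 to 1.05 and included 1. Of 10 adipocyte markers 9 had counts in both libraries, such as Adipoq (adiponectin) at 308 CPM in the sipink library and 310 CPM in the control library, while Lep had 0 counts. The presence of counts does not show how far the cells had differentiated. CPM is a gene's count per 1000000 counts of the scaled library, and because 3′ tags are taken from the ends of transcripts it is not divided by gene length. The preadipocyte marker Dlk1 was also abundant, with 130666 counts in the sipink library and 116628 in the control library. Of 8 cartilage markers 3 had counts, nearly all from the regulator Sox9 (6397 in the sipink library and 6290 in the control library), and the matrix genes Acan and Col2a1 had 0. Of 7 macrophage markers 5 had counts, led by Cd14 (179 in the sipink library and 223 in the control library), and Adgre1 and Itgam had 0. Of 6 endothelial markers 2 had counts, at most 8 in either library, and Cdh5 and Kdr had 0.

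The osteogenic genes fell into those with ample reads and those at or near the floor. Counts were sizeable for Twist1, Spp1, Runx2 and Msx1 and modest for Phex, while Alpl, Ibsp and Dlx5 had at most 11 counts in either library and Sp7 and Msx2 had none. Genes with at least 40 counts over both libraries together are termed measured, and 5 of the 10 reached that. With 0 reads seen, up to 3 could have been missed, which is 0.214 CPM in either library, so these genes were not detectable at this depth rather than shown to be absent. Intervals and floors cover counting error only.

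**Figure D1:**
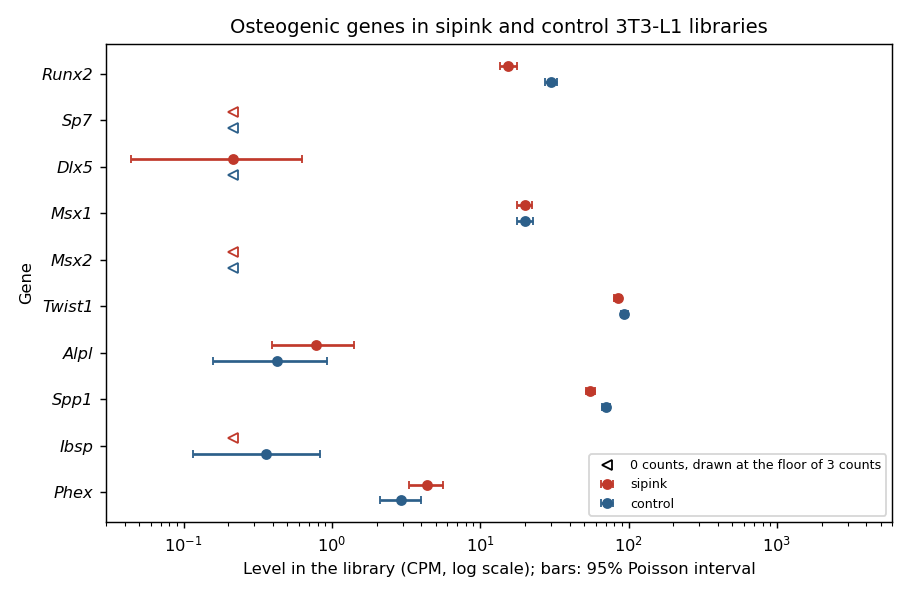
Level of each osteogenic gene (rows) in the sipink library (red) and the control library (blue), in CPM on a log axis; points are single libraries, bars are 95% Poisson intervals, and open triangles are 0 counts drawn at the floor of 3 counts. Runx2 was at 15.5 CPM in the sipink library and 29.9 CPM in the control library, and the bars of Spp1, at 55.0 and 70.7 CPM, also do not overlap.

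Runx2 had the lowest ratio among the 5 measured genes. It had 217 counts in the sipink library and 419 in the control library. That is 15.5 CPM (95% Poisson interval 13.5 to 17.7) in the sipink library and 29.9 CPM (27.1 to 32.9) in the control library, 2 ranges that do not overlap. In RNA from a whole culture, fewer cells that express a gene and less of its RNA per cell cannot be told apart. The ratio, sipink over control, was 0.519 (1.93-fold lower, log2 -0.95), with an exact counting interval of 0.438 to 0.612. Counting error understates how far 2 libraries differ, since the interval of 51.2% of all measured genes left out 1. An interval widened by the spread seen between the libraries among genes of like level, which divides both Runx2 counts by 7.87, was 0.315 to 0.835 and still lay below 1. This held for 2.01% of the 11660 measured genes. There were 1198 measured genes within 1.2-fold of the Runx2 level. Of these, 4, Runx2 included, were at or under its ratio, and the middle 50% had log2 ratios between -0.20 and 0.21. The rule of size used for calls asks for a ratio of at least 2 either way and a counting interval that leaves out 1, and Runx2 was just short of it. With libraries scaled to their totals without the ribosomal precursor row Rn45s, the ratio was 0.498 and Runx2 passed.

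Runx2 shares its locus with another gene. It lies on chromosome 17 from 44495987 to 44814797 on the minus strand (GENCODE M21, GRCm38, the assembly behind mm10), over 318811 bases, and Supt3, a transcription coactivator subunit gene on the opposite strand, runs from 44777152 to 45119290. The overlap of 37646 bases covers the 5′ part of both genes. Their annotated 3′ ends, where these libraries take their reads, lie 623303 bases apart. Of 13 annotated Runx2 transcripts 1 ends inside the overlap, and of 4 Supt3 transcripts 0 do. Supt3 had 196 counts in the sipink library and 191 in the control library, a ratio of 1.03 (counting interval 0.837 to 1.26, widened interval 0.608 to 1.74). The widened intervals of the 2 genes overlap, and the difference between their ratios was not tested. The sources used here do not say whether reads were counted by strand, so the split of reads between them is uncertain. The 3 antisense RNA genes within Runx2, Runx2os1, Runx2os2 and Runx2os3, have no row, and any reads of theirs cannot be told apart from those of Runx2 if strand was ignored.

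Summed smooth muscle and osteoclast markers were lower in the sipink library beside Runx2, each mostly through a single abundant gene. Macrophage markers also summed lower, to 16.1 CPM in the sipink library and 20.3 CPM in the control library. Endothelial markers did so from few reads, with 7 counts in the sipink library and 13 in the control library. Smooth muscle and myofibroblast markers summed to 229 CPM in the sipink library and 334 CPM in the control library. Acta2 held most of this, with 2967 counts in the sipink library and 4408 in the control library, and its widened interval of 0.380 to 1.17 included 1. Of the 6 genes 3 were measured, and they did not share a direction. Tagln, which Pcsk7 overlaps at its 3′ end, had 132 counts in the sipink library and 172 in the control library, while Des had 99 and 74. Below the minimum, Myh11 had 13 counts in the sipink library and 4 in the control library, Actg2 had 3 and 21, and Cnn1 had 0 in both. Osteoclast markers summed to 60.1 CPM in the sipink library and 96.7 CPM in the control library. The gelatinase gene Mmp9 held most of this, with 570 counts in the sipink library and 1074 in the control library and a widened interval of 0.358 to 0.778. Of the 8 genes 2 were measured, and the other, the protease gene Ctsk, had 262 counts in the sipink library and 273 in the control library. Acp5 had 7 counts in the sipink library and 0 in the control library, and Dcstamp and Tnfrsf11a had 0 in both. The part of these markers in the Runx2 difference was not tested. Adipocyte markers summed to 2627 CPM in the sipink library and 2451 CPM in the control library, mostly from Fabp4 (1196 and 1047 CPM) and Lpl (815 and 817 CPM). Of the 9 measured, 5 had a ratio above 1 and 4 below, so they did not share a direction. The lowest was Plin1, with 167 counts in the sipink library and 275 in the control library, a ratio of 0.608 (widened interval 0.343 to 1.05). Preadipocyte and fibroblast markers summed higher, to 11422 CPM in the sipink library and 10247 CPM in the control library. Dlk1 held most of this (9329 and 8326 CPM). Of the 7 measured, 6 had a ratio above 1 (5 with total counts) and 1 below. Widened intervals lay above 1 for Thy1 (1.05 to 2.06) and Dlk1 (1.02 to 1.23), and with total counts for Thy1 alone.

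**Figure D2:**
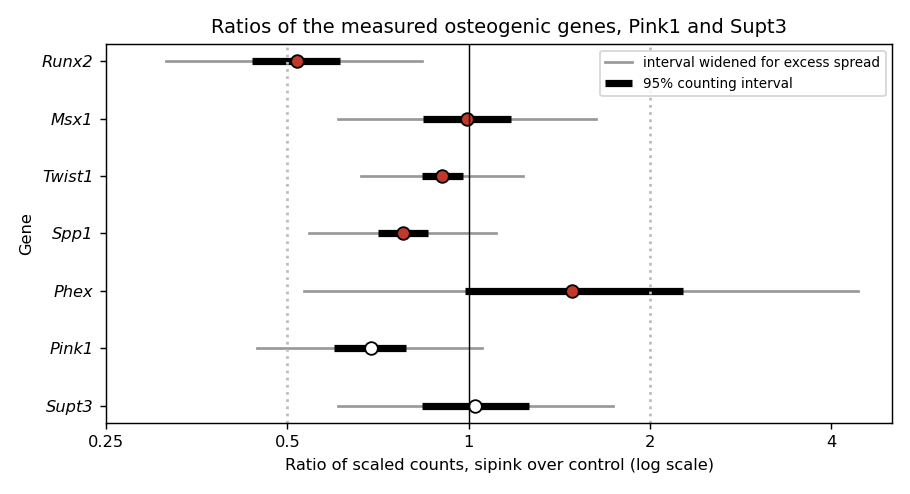
Ratio of scaled counts, sipink over control, on a log axis for the 5 measured osteogenic genes (red) and for Pink1 and Supt3 (white); thick bars are 95% counting intervals, thin bars are the widened intervals, and dotted lines mark ratios of 0.5 and 2. The thin bar of Runx2 (0.315 to 0.835) is the one that lies wholly on one side of 1.

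Twist1, the restraint on RUNX2, and Msx1 were close to equal in both libraries. Twist1 had 1181 counts in the sipink library and 1306 in the control library, or 84.3 and 93.2 CPM. Its ratio was 0.904, the counting interval 0.835 to 0.979 and the widened interval 0.663 to 1.23. The counting interval leaves out 1 and the widened one does not, and 198 of the 871 genes of like level were at or under its ratio. Msx1 had 279 counts in the sipink library and 281 in the control library, or 19.9 and 20.1 CPM. Its ratio was 0.993, the counting interval 0.838 to 1.18 and the widened interval 0.606 to 1.63, so a difference of that width cannot be seen here. Msx1 and Runx2 had like levels, and of the pair only the widened interval of Runx2 left out 1. The difference between their ratios was not tested. Twist1 lies on chromosome 12 from 33957671 to 33959829 and Msx1 on chromosome 5 from 37820485 to 37824583, and neither overlaps another annotated gene.

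The regulators Sp7, Msx2 and Dlx5 were at the floor. Sp7 (chromosome 15, 102356606 to 102367182) and Msx2 (chromosome 13, 53466884 to 53473074) had 0 counts in both libraries. Dlx5 (chromosome 6, 6877805 to 6882085) had 3 counts in the sipink library and 0 in the control library, and since both are within the floor no ratio is given. Its neighbour and partner gene Dlx6, 9236 bases away, had 0 counts in both. The genes beside Sp7 were read in numbers, with 2704 counts in the sipink library and 2662 in the control library for Sp1, a general transcription factor of the same family 38960 bases away, and 738 and 614 counts for the nuclear pore gene Aaas on its other side. The row of Sp7 at 0 thus stood between well-detected neighbours.

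Spp1 was the only measured member of its gene cluster. It had 771 counts in the sipink library and 991 in the control library, or 55.0 CPM (51.2 to 59.1) in the sipink library and 70.7 CPM (66.4 to 75.3) in the control library. Its ratio was 0.778, the counting interval 0.707 to 0.856 and the widened interval 0.542 to 1.11, which includes 1. Of 1057 genes of like level, 63 were at or under its ratio. Osteopontin is also made by macrophages and many stromal cells, so its RNA is not by itself a sign of osteoblasts. The 7 macrophage markers summed to 16.1 CPM in the sipink library and 20.3 CPM in the control library, with Adgre1 and Itgam at 0 in both. Their part in the Spp1 value was not tested. Spp1 lies on chromosome 5 from 104435118 to 104441050, at one end of a run of 5 acidic bone and tooth protein genes that spans 270 kb in the order Dspp, Dmp1, Ibsp, Mepe and Spp1. Ibsp (104299171 to 104311469) had 0 counts in the sipink library and 5 in the control library. The counting interval of the ratio, 0 to 1.09, includes 1, so no difference was detectable from so few reads. Dmp1, an osteocyte matrix gene, had the same counts, 0 in the sipink library and 5 in the control library. The tooth gene Dspp and the osteocyte gene Mepe had 0 in both. The start of Spp1 is also covered by Gm42793, a gene on the same strand with no row. On its far side, the polycystin gene Pkd2 lies 18399 bases away and had 1040 counts in the sipink library and 1154 in the control library.

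The 2 enzyme genes had more reads in the sipink library, from small numbers. Phex had 61 counts in the sipink library and 41 in the control library, or 4.36 CPM (3.33 to 5.59) and 2.93 CPM (2.10 to 3.97). These ranges overlap, the ratio was 1.48 (counting interval 0.985 to 2.27), and 88 of 488 genes of like level were at or above it. Alpl had 11 counts in the sipink library and 6 in the control library, below the minimum for a measured gene. Its ratio was 1.77 (counting interval 0.622 to 6.04), so neither a rise nor a drop was detectable. Alpl lies on chromosome 4 from 137741733 to 137796384 and Phex on chromosome X from 157162075 to 157415312. Gm23798, Gm25795 and the pseudogene Gm15172 lie within Phex and have no row. Next to Alpl, 65852 bases away, Ece1 had 948 counts in the sipink library and 1009 in the control library.

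As a set, the osteogenic genes gave no call. Of the 5 measured, 0 were higher and 0 lower by the rule of size, which took 1.63% of all measured genes as higher and 2.39% as lower. Of the 5, 4 had a ratio below 1, all 3 measured regulators among them, against 5703 of 11660 over all measured genes. Their median log2 ratio was -0.14, the value of Twist1, and that of all measured genes was 0.00. With a ratio of 1.5 in place of 2, 1 member was lower (Runx2) and 0 higher, where 6.64% and 5.43% of all measured genes were. The 5 genes passed the minimum on counts summed over both libraries, and the other 5 give no ratio for the set.

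**Figure D3:**
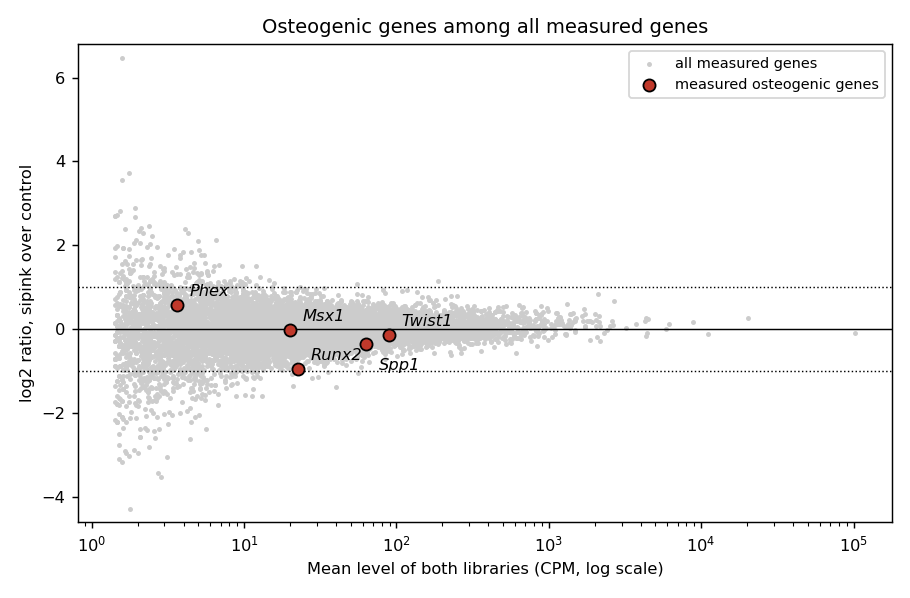
Log2 ratio, sipink over control, against the mean level of both libraries in CPM (log axis) for all 11660 measured genes (grey) and the 5 measured osteogenic genes (red); dotted lines mark 2-fold either way. Runx2 (log2 -0.95) lies at the lower edge of the grey points of its level, and the other 4 lie inside them.

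Among the RUNX family and the partners of RUNX2, the 1 gene past the rule was a family member. Of 19 such genes 18 were measured, and 0 were higher and 1 lower by the rule of size. Over all measured genes 1.63% were higher and 2.39% lower. Of the 18, 12 had a ratio below 1, against 5703 of 11660 over all measured genes, and the median log2 ratio was -0.21. The gene past the rule was Runx1, the RUNX family member best known from blood stem cells, with 47 counts in the sipink library and 131 in the control library. Its ratio was 0.361, the counting interval 0.251 to 0.504 and the widened interval 0.133 to 0.860. Runx3, the third family member, had 0 counts in both libraries. The shared partner subunit gene Cbfb had 715 counts in the sipink library and 871 in the control library (log2 -0.28), and its widened interval included 1. The hedgehog effector Gli2 had 182 counts in the sipink library and 328 in the control library, a ratio of 0.556 with a widened interval of 0.324 to 0.930. The Notch target Hey1 had 22 counts in the sipink library and 39 in the control library (log2 -0.81), with a widened interval that included 1. Hes1 had 1076 counts in the sipink library and 1473 in the control library, a ratio of 0.731 with a widened interval of 0.535 to 0.994. A ratio above 1 was seen for 6 of the 18 (5 with total counts). The highest were Hdac3, with 463 counts in the sipink library and 333 in the control library (log2 0.47), and Hdac4, with 208 and 162 (log2 0.36). Their widened intervals included 1. Widened intervals thus lay below 1 for 3 of the 18 genes (Runx1, Gli2 and Hes1), and for 2.01% of all measured genes.

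Homeobox relatives were split in direction. Of 11 genes 4 were measured, none passed the rule, and the median log2 ratio was 0.13. Dlx2 had 153 counts in the sipink library and 95 in the control library (log2 0.68) and Dlx1, its neighbour and partner gene, 150 and 114 (log2 0.39). The limb and craniofacial mesenchyme factors Prrx1 and Prrx2 had log2 ratios of -0.13 and -0.22. All 4 widened intervals included 1. Reads of the Dlx family came mostly from Dlx1 and Dlx2, while Dlx4 had 16 counts in the sipink library and 9 in the control library and Dlx3, Dlx5 and Dlx6 at most 3 in either.

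Among partners and inhibitors of TWIST1, 8 of 9 were measured, 1 was higher and 0 lower, and the median log2 ratio was -0.11. Twist2, its close paralog, had 1360 counts in the sipink library and 1225 in the control library (log2 0.15). Id4, an inhibitor of basic helix-loop-helix factors, was the gene past the rule, with 170 counts in the sipink library and 81 in the control library. Its ratio was 2.09, the counting interval 1.60 to 2.77 and the widened interval 1.02 to 4.59, which included 1 with total counts. The other inhibitors Id1, Id2 and Id3 had log2 ratios of -0.18, -0.52 and -0.26, and their widened intervals included 1.

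Most other bone matrix genes either had very many reads or almost none. Of 16 genes 10 were measured, 0 passed the rule in either direction, and the median log2 ratio was 0.12. Of the 10, 8 had a ratio above 1 (7 with total counts), against 5957 of 11660 over all measured genes. Sparc, osteonectin, had 66831 counts in the sipink library and 55444 in the control library (log2 0.27), the collagen crosslinking enzyme gene Lox 31637 and 24562 (log2 0.37), and the type I collagen chain gene Col1a1 63932 and 55640 (log2 0.20). Widened intervals lay above 1 for these 3 genes, and over all measured genes they did so for 2.09%. With total counts without Rn45s, 5 of the 10 ratios lay above 1 and the widened interval of Col1a1 no longer left out 1, while those of Sparc and Lox did. The other type I collagen chain gene, Col1a2, had 149245 counts in the sipink library and 160662 in the control library (log2 -0.11). Its widened interval included 1 with TMM scaling and lay below 1 with either total-count scaling and with upper quartile scaling. These are matrix genes of fibroblasts as well as bone. The osteocalcin genes Bglap and Bglap2 had 0 counts in both libraries and Bglap3 had 0 in the sipink library and 1 in the control library, and these near-identical copies could share reads. Omd, a keratan sulphate protein of mineralized matrix, had 58 counts in the sipink library and 70 in the control library (log2 -0.27), but Cenpp lies over its 3′ end on the other strand, with 99 and 105 counts.

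**Figure D4:**
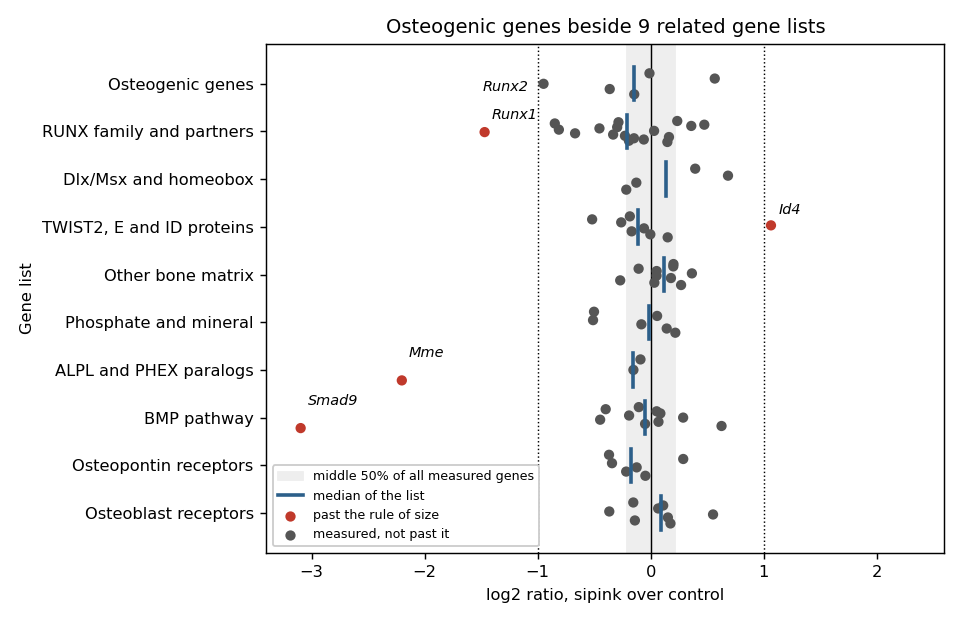
Log2 ratio, sipink over control, of each measured gene in the osteogenic set and in 9 related lists (rows), with the median of each list as a blue bar and the middle 50% of all measured genes shaded. Genes past the rule of size are red and are Runx1, Mme and Smad9 on the lower side and Id4 on the higher side; Runx2 is at -0.95.

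Other phosphate and pyrophosphate genes gave no call. Of 11 genes 6 were measured, 3 had a ratio below 1, and the median log2 ratio was -0.01. The pyrophosphate exporter gene Ank had 963 counts in the sipink library and 1363 in the control library, a ratio of 0.707 with a widened interval of 0.516 to 0.963. Otulin overlaps it by 52275 bases on the other strand, with 563 and 660 counts, so its reads are uncertain. The phosphate importer gene Slc20a1 had 304 counts in the sipink library and 433 in the control library (log2 -0.51), with a widened interval that included 1. Enpp1, which makes extracellular pyrophosphate, had 2 counts in the sipink library and 12 in the control library, below the minimum. Among paralogs of the 2 enzymes 3 of 9 were measured, 0 were higher and 1 lower, and the median log2 ratio was -0.15. Mme, the peptidase neprilysin and a relative of PHEX, was past the rule with 7 counts in the sipink library and 34 in the control library (log2 -2.20), but its widened interval of 0.00807 to 1.49 included 1. The other alkaline phosphatase genes Alppl2, Alpi and Akp3 had 0 counts in both libraries.

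BMP signals, which induce Runx2, Msx2 and Dlx5 in skeletal cells, were read through their receptors and effectors and not through the 4 ligand genes listed. Of 17 genes 11 were measured, 0 were higher and 1 lower, and the median log2 ratio was -0.05. Bmp2, Bmp4, Bmp6 and Bmp7 had 0 counts in both libraries. Smad9, a BMP effector, was past the rule with 4 counts in the sipink library and 38 in the control library, a ratio of 0.117 whose widened interval reached 1.05. The effector Smad1 had 242 counts in the sipink library and 330 in the control library (log2 -0.45), the receptor gene Bmpr1a 677 and 892 (log2 -0.40), and the inhibitor Smad6 198 and 128 (log2 0.63), all with widened intervals that included 1. Receptors of osteopontin and bone sialoprotein had 6 of 9 genes measured, none past the rule, and a median log2 ratio of -0.17, with Cd44 at -0.37, Itgav at -0.34, Itgb3 at -0.22 and Itga5 at 0.29. Osteoblast receptors and late markers had 8 of 11 measured, none past the rule, and a median of 0.09, with the Wnt coreceptor gene Lrp5 at 0.55, Fgfr3 at -0.37, Vdr at 0.18 and Cdh11 at -0.15. The sclerostin gene Sost, an osteocyte marker, had 0 counts in both libraries. Of the same list, Ifitm5 had 10 counts in the sipink library and 26 in the control library, and Pth1r had 5 and 1. Both were below the minimum for a measured gene.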

How the data were processed

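RNA was extracted with Trizol and made into QuantSeq libraries, which read the 3′ ends of polyadenylated transcripts, per the labels' protocols. The submitters' processing notes name the tools bcl2fastq (2.20.0.422), Bowtie2 and bedtools and the build mm10. They do not state the annotation, the use of strand or how multiply mapped reads were placed. The deposited tables hold raw counts for each gene symbol, as their whole-number values and unequal totals show. The Rn45s row held 9.83% of the sipink counts and 10.8% of the control counts and was kept. None of the named genes was among the 79 rows that share a symbol with another row.

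Library sizes were adjusted with the TMM method of edgeR 4.0.16 (R 4.3.3). Log2 ratios, sipink over control, used scaled counts with 0.5 added. Ratio intervals are exact conditional binomial (Clopper-Pearson, 95%) intervals from SciPy 1.17.1. For widened intervals both counts were divided by the mean excess of the squared difference over its binomial variance in the gene's twentieth of mean level (20 bins, factors from 5.58 to 128). The procedure was tested on simulated Poisson counts. These lack the excess spread seen between the libraries, so the widened intervals were not tested. Related lists held fixed symbols; from each, genes past the rule of size and up to 4 measured genes with the largest log2 ratios were taken for naming, of which some are not reported here, and further genes are named by position, at 0 or as list members. The genes and lists were chosen with earlier results of these data known. Alternatives were other scalings (DESeq2 1.42.0 size factors, upper quartile, totals), count minimums, added counts, folds and intervals. Coordinates are from GENCODE M21 (1-based) and promoter windows from RefSeq.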

Additional observations from a re-analysis of the deposited data

How the results depend on the processing

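The number of osteogenic genes past the rule of size was 0 higher under every alternative run. The number lower was 0 except for 1 (Runx2) with total counts without Rn45s and 1 with a ratio of 1.5. Over the scalings and added counts the Runx2 ratio ran from 0.498 to 0.524. The median log2 ratio of the measured genes stayed below 0, from -0.25 with a summed count of 200 to -0.08 with no filter, where Ibsp and Dlx5 enter on opposite sides of the median and their size has no effect on it. Over all genes, the counts higher and lower were 597 and 853 with no filter, 26 and 40 at a summed count of 200, 633 and 774 at a ratio of 1.5, 23 and 44 at a ratio of 4, and 48 and 81 with the widened interval, against 190 and 279. Single genes under other scalings and added counts gave 292 values inside their counting interval and 13 outside it, for abundant genes with narrow intervals, and none past the rule changed sign. Total counts without Rn45s moved the log2 ratio of Sox9 to -0.03. Depth limits Alpl, Ibsp, Dlx5, Sp7 and Msx2, for which no difference could be seen. No paired analysis was possible because each group has 1 library.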
